A study of Ambystoma mexicanum with 8 samples.

Results

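The 200 axolotl transcripts described here are those that were highest at 14 days post-amputation (dpa) relative to every earlier stage of forelimb regeneration that was sequenced. Of the 90099 transcripts in the mRNA table, 8459 held 300 or more reads at 14 dpa. The 200 among these with the largest ratio of 14 dpa to the highest of 0, 3 and 6 dpa, in cpm (reads relative to the total of the library) with 0.5 cpm added to both sides, make up the set. They belong to 187 Trinity components, the groups of assembled transcripts that stand in for genes. The choice rests on the measured values themselves, so the 14 dpa ratios below describe the set and are not findings about it.

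The mRNA libraries came from forelimbs of *Ambystoma mexicanum* that had been cut through the mid-zeugopod, the forearm, at 14, 6 and 3 dpa. The 0 dpa library came from uninjured forelimbs. Animals came from a stock centre colony, and the word adult in the study's methods may or may not cover them. Strain and sex are not given in the sources used here. There was 1 library per stage, made from at least 4 tissues pooled, so no spread between animals can be given and no test was made. The study compared the blastema stage of 6 dpa with 0 dpa, and it added 3 and 14 dpa to improve the assembly.

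An amputated salamander limb first closes the wound with epidermis and then builds a blastema, a mound of proliferating progenitor cells under that epidermis. The blastema grows, and its cells are then patterned from the stump towards the tip and differentiate into new skeleton, muscle and connective tissue. In vertebrate limbs the *hoxa* genes are switched on in order along this axis, *hoxa13* being the marker of the autopod, the hand. Hedgehog signalling, of which the Gli proteins are the transcription factors, patterns the digits.

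The libraries held 15249786, 36931886, 19049794 and 18581310 reads at 0, 3, 6 and 14 dpa. The late fold used below is the log2 ratio of 14 dpa to the highest earlier stage after TMM scaling (trimmed mean of M values), and a positive value means higher at 14 dpa. Scaling by total reads in place of TMM shifted the median transcript by 0.45 for 14 against 0 dpa, by 0.25 against 3 dpa and by -0.04 against 6 dpa. Intervals are 95% exact Clopper-Pearson intervals. They cover counting error only, neither the choice of the highest earlier stage nor the way reads shared by similar transcripts were divided. A late fold above 0.58, a 1.49-fold rise, is counted as higher, and this was met by 8.44% of the 89761 transcripts with 10 or more reads and by 10.5% of the 8459 transcripts from which the set was chosen.

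The median member had 43.5, 202, 104.5 and 524.5 reads at 0, 3, 6 and 14 dpa. All 200 had a late fold above 0.58, as the rule made near certain, with a lowest value of 0.94, a median of 1.71 and quartiles of 1.41 and 2.35. The median of the 8459 candidates was -0.15. In pooled tissue, a change in the number of cells of a type and a change in RNA per cell cannot be told apart. A late fold of 2 or more, a 4-fold difference, was seen in 69 members and one of 3 or more in 25. Together the members took 0.323%, 0.578%, 0.715% and 2.38% of all reads at 0, 3, 6 and 14 dpa. Without the 2 members with the most reads these shares were 0.148%, 0.199%, 0.243% and 1.15%.

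Before 14 dpa the members did not follow one course. After TMM scaling, 64, 77 and 59 were highest at 0, 3 and 6 dpa, or 32%, 38.5% and 29.5% of the set. The 64 include the 7 members at 0 reads in all earlier libraries, which have no highest stage and were put with 0 dpa. Among the 8459 candidates these shares were 27.7%, 43.7% and 28.5%. Under scaling by total reads the counts were 38, 65 and 97, so the order of the stages before 14 dpa depends on the scaling. A rise at each step of the series was seen in 36 members, a count that was not made over the candidates. The 57 members lower at both 3 and 6 dpa than at 0 dpa are those highest at 0 dpa, without the 7 at 0 reads.

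**Figure D1:**
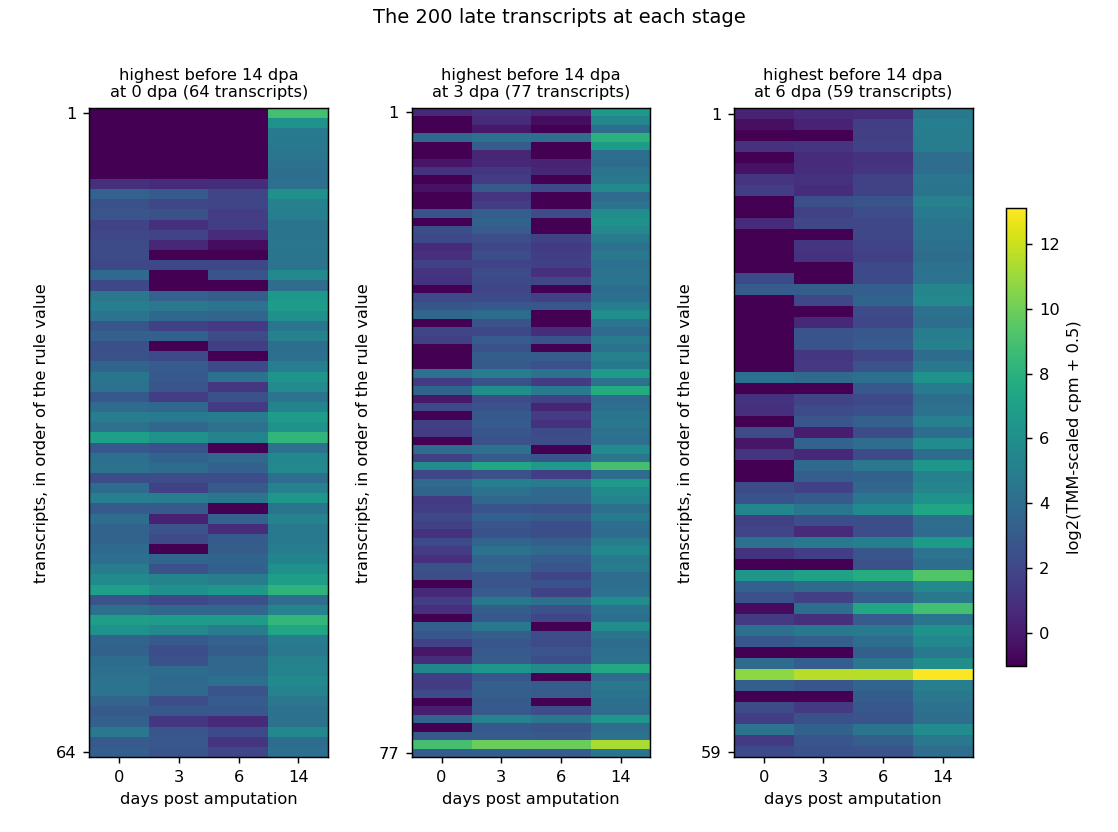
Level of each of the 200 late transcripts (rows) at 0, 3, 6 and 14 dpa (columns), as log2 of TMM-scaled cpm plus 0.5, in 3 panels by the earlier stage at which the transcript was highest (64 at 0 dpa, 77 at 3 dpa, 59 at 6 dpa). The 14 dpa column is the brightest of every row by choice, and the dark blocks are the transcripts with 0 reads at earlier stages.

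Names come from the zebrafish homologs that the study's supplementary tables, held in part, pair with axolotl transcripts. They gave a gene or protein name to 23 members, 11.5% of the set, against 15.2% of the candidates. Another 16 members had a name only on another transcript of their component. In all, 37 named components held a member. Summed over all its transcripts, the component was above 0.58 in 15 of these, between -0.58 and 0.58 in 18 and below -0.58 in 4. Both kinds are given below, since a rise of 1 transcript is not always a rise of its gene.

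Among regulators of limb and tissue patterning, *hoxa13* stood out because both of its assembled transcripts were members and no other transcript shares their component. The first, comp38525_c0_seq1, had 3, 29, 57 and 709 reads at 0, 3, 6 and 14 dpa, and the second, comp38525_c0_seq2, had 73, 318, 94 and 1306. The pairing with *hoxa13* was given for the second transcript only. In TMM-scaled cpm the sum was 6.09, 9.97, 6.85 and 96.7 at 0, 3, 6 and 14 dpa, a late fold of 3.28 (interval 3.11 to 3.45). All 3 earlier libraries were low, and that 14 dpa stood apart from them was set by the choice. The first transcript made up 3.95%, 8.36%, 37.7% and 35.2% of the component's reads at 0, 3, 6 and 14 dpa.

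The other *hox* transcripts that the tables name were added after their values were seen. *hoxa11*, a gene of the zeugopod, had a transcript with 0, 230, 85 and 119 reads and a late fold of -0.21 (-0.54 to 0.11). Its component of 8 transcripts had a summed late fold of -0.25 (-0.36 to -0.15). *hoxc13* had 22, 179, 69 and 117 reads and a late fold of 0.13 (-0.22 to 0.47). The pair of *hoxa10b* transcripts had late folds of 0.74 (0.12 to 1.36, with 46 reads at 14 dpa) and -0.17 (-0.46 to 0.11, with 160 reads). Both lie in a component of 7 transcripts, whose summed late fold was -0.50 (-0.63 to -0.37). Since *hoxa13* is here for its high ratio, that these lie lower is set by the choice and is no result about *hoxa13*.

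*eya4* encodes a transcriptional coactivator with phosphatase activity of the Eyes absent family. Its member had 19, 66, 20 and 444 reads at 0, 3, 6 and 14 dpa, a late fold of 3.48 (3.11 to 3.88). The other 3 transcripts of the component together had 145, 289, 136 and 461 reads and were also higher at 14 dpa, with a late fold of 0.93 (0.66 to 1.21). The member's share of the component was thereby 49.1% at 14 dpa, against 11.6%, 18.6% and 12.8% at 0, 3 and 6 dpa.

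*gli2a* encodes a Gli transcription factor of the hedgehog pathway. The member comp38104_c0_seq2 had 19, 60, 63 and 613 reads, a late fold of 3.36 (2.99 to 3.76), and its only partner, comp38104_c0_seq1, had 239, 1163, 700 and 1737 reads, a late fold of 1.32 (1.21 to 1.43). The whole component was higher at 14 dpa, at 113 TMM-scaled cpm, against 20.7, 35.2 and 34.6 at 0, 3 and 6 dpa. Further assembled transcripts that the tables also pair with *gli2a* lie in 3 other components, and they were not higher. Their late folds were -0.34 for comp37465_c0_seq1 (221 reads at 14 dpa), -0.62 for comp17792_c0_seq1 (43 reads) and -0.64 for comp18777_c0_seq1 (18 reads). Which of these components is the axolotl gene cannot be told from the names.

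*tfap2a*, a transcription factor of epidermis and neural crest, had a member with 54, 21, 97 and 346 reads, a late fold of 1.91 (1.59 to 2.25). Its other transcripts had a late fold of 0.09 (-0.16 to 0.36), so the component as a whole reached 0.74. For *rarga*, a retinoic acid receptor named on another transcript of the component, the member comp33972_c0_seq4 had 650, 1388, 695 and 2434 reads and the component a late fold of 0.74 (0.65 to 0.83). *unc5b*, a netrin receptor, was likewise named through its component, whose summed reads of 141, 2661, 1853 and 4003 gave a late fold of 1.19 (1.11 to 1.27). The member itself held only 9.67% of these at 14 dpa. A second component paired with *unc5b* had a late fold of -0.51.

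Genes of chromatin and of the nuclear envelope were also among the named members. *hmgb3a*, a high-mobility group protein that bends DNA, is a component of a single transcript with 998, 4716, 4667 and 12794 reads. In TMM-scaled cpm it was 80.0, 136, 212 and 614 at 0, 3, 6 and 14 dpa, higher at every step, with a late fold of 1.53 (1.49 to 1.58). A transcript matched to the non-histone chromosomal protein HMG-14A, a nucleosome-binding protein, had 1470, 3897, 2365 and 6742 reads and a late fold of 1.46 (1.37 to 1.54). Its TMM-scaled level stayed between 107 and 118 cpm up to 6 dpa and was 323 cpm at 14 dpa. The other transcript of that component was also higher, with 6409 reads at 14 dpa and a late fold of 0.67. *tmpoa*, a lamina-associated protein of the inner nuclear membrane, had a member at 20, 90, 139 and 420 reads. The component as a whole had a late fold of 0.97 (0.88 to 1.06).

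**Figure D2:**
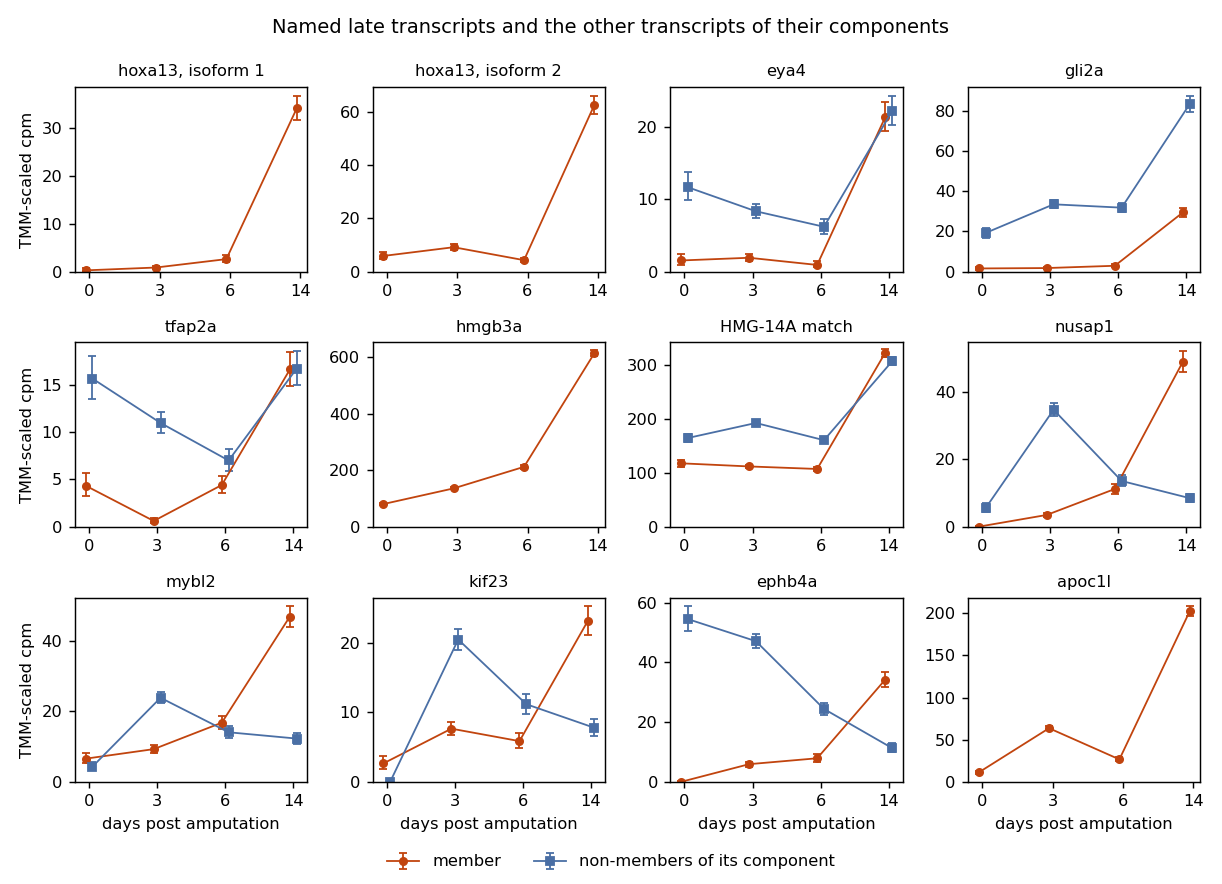
TMM-scaled cpm of 12 named late transcripts (circles) and of the summed other transcripts of their components (squares, where there are any) at 0, 3, 6 and 14 dpa (evenly spaced, not to scale in time), with bars for the 95% exact Poisson interval of the read number. The other transcripts were also higher at 14 dpa for *eya4*, *gli2a* and the HMG-14A match, and lower than at 3 dpa for *nusap1*, *mybl2*, *kif23* and *ephb4a*.

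Of the cell cycle list described below, 3 genes had a member. *nusap1*, a spindle microtubule protein, had a member with 0, 121, 246 and 1018 reads, a late fold of 2.13 (1.93 to 2.34). *mybl2*, which encodes B-Myb, a transcription factor of cycling cells, had one with 82, 323, 370 and 978 reads, a late fold of 1.48 (1.31 to 1.66). *kif23*, a kinesin of the central spindle, had one with 33, 266, 129 and 481 reads, a late fold of 1.59 (1.37 to 1.81). In all of these the other transcript or transcripts of the component peaked at 3 dpa and were lower at 14 dpa, with late folds of -2.03, -0.96 and -1.40. Summed over the component the late fold was 0.84 (0.72 to 0.95) for *mybl2*, 0.59 (0.47 to 0.70) for *nusap1* and 0.13 (-0.01 to 0.28) for *kif23*.

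For some named members outside that count, the component was under the cut-off. *arhgap11a*, a gene of dividing cells, had a member late fold of 1.87 and a component late fold of 0.41. *cul1a*, the scaffold of SCF ubiquitin ligases, had 2.60 for the member and 0.16 for the component. *pold1*, the catalytic subunit of DNA polymerase delta, was named through its component. There the member had 120, 886, 0 and 1252 reads and the only other transcript 18, 768, 551 and 0, and their sum had a late fold of 0.34. The reads assigned to the 2 transcripts thus traded places between 6 and 14 dpa. What part the division of reads between similar sequences has in this was not tested.

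In several other named members, the transcript was higher and the component was not. *ephb4a*, a receptor for ephrin-B ligands, had a member with 0, 206, 174 and 714 reads and a late fold of 2.12 (1.88 to 2.36), while its other transcripts had 680, 1639, 538 and 236 reads and a late fold of -2.27. The component was at -0.26 (-0.40 to -0.11). *wasf2*, an activator of Arp2/3-driven actin assembly, had 1.42 for the member and -0.47 for the component. *serinc5*, a multipass membrane protein, had 1.46 for the member and -0.22 for the component. For *chico* these values were 1.73 and -0.11, and for *ppp6r3*, a regulatory subunit of protein phosphatase 6, they were 1.72 and 0.36. *unc45a*, a myosin chaperone, had 1.29 for the member and 0.05 for the component.

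*FRMD4A*, a scaffold protein of epithelial polarity, had 2 members, with 0, 299, 181 and 729 reads and with 65, 413, 140 and 620 reads. Its other transcripts had a late fold of -2.98, and the component one of 0.69 (0.58 to 0.80). *avil*, which encodes the actin-binding protein advillin, is a component of 1 transcript with 423, 1081, 499 and 1798 reads and a late fold of 1.35 (1.19 to 1.50). It stood at 86.2 TMM-scaled cpm at 14 dpa, against 33.9, 31.1 and 22.6 at 0, 3 and 6 dpa.

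*apoc1l*, an apolipoprotein C-I-like gene of lipid transport, is a component of 1 transcript with 139, 2213, 587 and 4219 reads and a late fold of 1.67 (1.60 to 1.74). Its TMM-scaled level was 11.1, 63.6, 26.6 and 202 cpm at 0, 3, 6 and 14 dpa, so the 3 dpa library was the highest of the earlier 3. *gstz1*, an enzyme of tyrosine breakdown, had 0.99 (0.78 to 1.20) for the member and -0.13 for the component.

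The other transcripts of a component were not used by the choice, although the authors' counting divides reads shared by similar transcripts between them, which ties them to the members. Components of several transcripts held 76.5% of the members, against 44.4% of the candidates, and the largest had 41 transcripts. In 53 components, with 59 members, the members were the only transcripts. In the other 134, the remaining transcripts were higher at 14 dpa in 10, lower in 66 and between the cut-offs in 58, with a median late fold of -0.57. For all candidates with such partners the background was 8.09% higher and 46.3% lower, with a median of -0.48, and the corresponding shares here were 7.46% and 49.3%. The partners of the members were thus close to the partners of any candidate.

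Summed over all transcripts, 89 of the 187 components had a late fold above 0.58, 47.6% of them. This is set beside 6.69% of the 7968 components with 300 or more reads at 14 dpa, a comparison that the choice of members raises. Of the 134 components with partners, 36 reached the cut-off as a sum, while 43 had a sum below 0 and 18 a sum below -0.58. Of the 141 members that share a component, the median held 9.88%, 11%, 12.0% and 46.9% of its reads at 0, 3, 6 and 14 dpa. The choice of members raises the share at 14 dpa, so this describes the set and is not a finding about it.

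**Figure D3:**
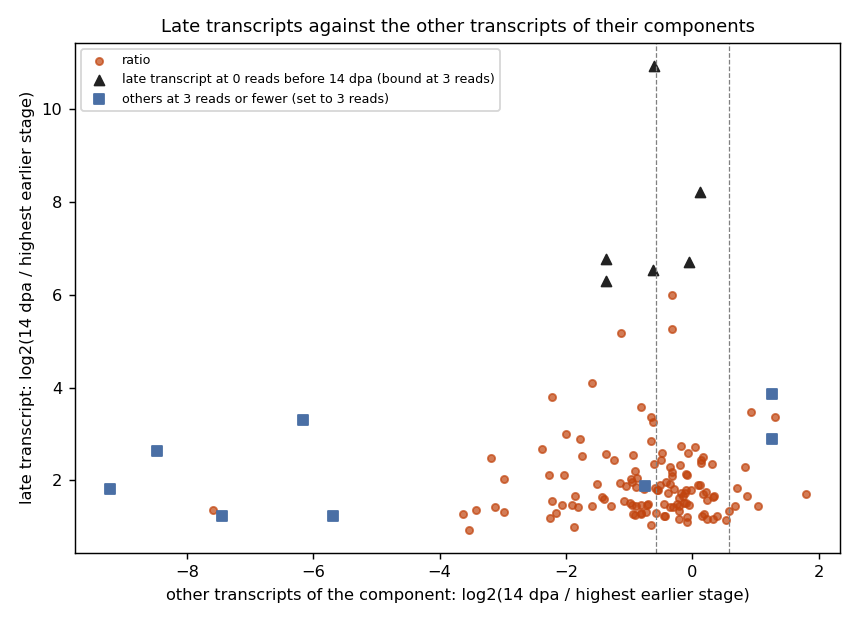
Late fold of the 141 late transcripts that share a component (vertical axis) against the late fold of the summed other transcripts of that component (horizontal axis), both log2 of 14 dpa over the highest earlier stage, with dashed lines at -0.58 and 0.58. Triangles are members with 0 reads before 14 dpa, drawn at their bound, and squares are components whose others held 3 reads or fewer in 1 of the libraries compared. Most points lie left of the line at 0.58, and 5 squares and 1 circle lie below -5.

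In 6 components the other transcripts were listed at 0 reads at 14 dpa, a count that was not made for the partners of all candidates. For *capns1a*, the small subunit of calpains, the other transcript had 1070, 1732, 1570 and 0 reads and the member 53, 102, 262 and 869, and the component as a whole was lower at 14 dpa, at -1.11 (-1.24 to -0.98). In comp41118_c0 the others had 321, 1001, 1122 and 0 reads and the member 59, 272, 0 and 1015, with a sum at -0.06. A slower exchange was seen in the unnamed comp27587_c0. Its member had 1534, 2490, 855 and 6587 reads and the other transcript 11846, 1183, 389 and 103, so the member's share was 11.5%, 67.8%, 68.7% and 98.5% at 0, 3, 6 and 14 dpa. The component's sum remained below its 0 dpa level, at -1.74.

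Entries of 0, which can stand for 0 or 1 read, were common among the members. They were found in 48 of the 200 members at 0 dpa, 21 at 3 dpa and 28 at 6 dpa. Among the 8459 candidates, members included, these counts were 152, 37 and 53, or 1.80%, 0.437% and 0.627%. In all, 62 members had at least 1 such entry, and 60 of these lie in components of several transcripts. The set's rule favours such transcripts, and what part the division of reads between similar sequences has in these entries was not tested.

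Only 7 members had 3 reads or fewer at every earlier stage, and in all of them the entry was 0 at 0, 3 and 6 dpa. They were the only such transcripts among the 8459 candidates, as the rule takes every candidate with so few earlier reads. All 7 lie in components of several transcripts. The foremost was comp36449_c0_seq2 with 9792 reads at 14 dpa, a late fold of at least 10.93 against the floor of 3 reads in each earlier library. It belongs to a component of 15 transcripts paired with zgc:92061, whose others held 311042, 394931, 279649 and 340382 reads, so it made up 2.80% of that component at 14 dpa and the component's late fold was -0.57. Next came comp24727_c0_seq2 with 1484 reads and a bound of 8.21, comp41275_c0_seq1 with 550 and 6.78, comp38521_c0_seq1 with 523 and 6.70, comp38936_c0_seq2 with 466 and 6.54, comp41275_c0_seq2 with 394 and 6.30 and comp35279_c0_seq2 with 349 and 6.12. Of the 6 components they belong to, the sum was above 0.58 in 2, comp24727_c0 at 0.65 and comp35279_c0 at 3.30.

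The other members among the 15 largest values of the rule had some reads earlier. In comp39953_c0, a component of 15 transcripts, comp39953_c0_seq8 had 13, 54, 21 and 2064 reads and comp39953_c0_seq16 had 0, 41, 4 and 945, with late folds of 5.99 and 5.26, while the component reached 0.55. A transcript of the *dysf* component, named for the membrane repair protein dysferlin, comp41209_c0_seq13, had 0, 15, 0 and 330 reads, and its component was at -0.81. For comp39656_c0_seq3 with 2329 reads at 14 dpa, comp40542_c0_seq4 with 341 and comp40021_c0_seq2 with 324, the component's late folds were -0.93, -1.32 and 3.08. Single transcripts with no partner were comp40997_c0_seq1, with 156, 667, 353 and 5501 reads, and comp39172_c0_seq1, with 10, 38, 28 and 537 reads. Their late folds were 3.78 (3.67 to 3.90) and 4.34 (3.79 to 4.94), the largest among the 47 members that are alone in their component, and neither has a name in the tables used here.

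Read numbers also depend on transcript length, which was not used here, so levels of different members were not compared. The most reads at 14 dpa lay on comp11243_c0_seq1, unnamed and alone in its component, with 20534, 105975, 68759 and 175894 reads. It took 0.135%, 0.287%, 0.361% and 0.947% of all reads at 0, 3, 6 and 14 dpa, and its late fold was 1.44 (1.42 to 1.45). A second unnamed single transcript, comp15872_c0_seq1, had 6141, 34248, 21135 and 52733 reads and a late fold of 1.36 (1.34 to 1.38). The reads of the first per read of the second were 3.34, 3.09, 3.25 and 3.34 at 0, 3, 6 and 14 dpa, so the 2 profiles ran close to parallel. Both transcripts of comp39651_c0 were members, the larger with 681, 6193, 2119 and 10429 reads, and the component's late fold was 1.54. Further members of high read number were comp40629_c0_seq6, with 2, 571, 3718 and 9737 reads in a component at 0.19, and comp36799_c0_seq1, alone in its component, with 1518, 2338, 2043 and 5975 reads and a late fold of 1.24.

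Members named only through their component were mostly transcripts whose component as a whole was not higher. The component was below -0.58 for *ZBTB11*, a zinc finger protein, at -1.36, and for *cyp2y3*, a cytochrome P450, at -0.74. It lay between the cut-offs for *sel1l* of endoplasmic reticulum quality control at -0.23, *mllt4*, the junction protein afadin, at -0.18, and the potassium-chloride cotransporter *slc12a4* at 0.15. The same held for *rbm14b*, an RNA-binding protein, at 0.20, the helix-loop-helix factor *tcf12* at 0.27 and the TDP-43-like *tardbpl* at 0.44. *comtb*, a catechol O-methyltransferase, was above it at 0.62. Of 4 other components paired with *tcf12*, 1 was above the cut-off at 0.63 and 1 was at -0.23. The remaining ones were single transcripts at 0 reads at both 3 and 14 dpa. At 0, 3, 6 and 14 dpa, comp46180_c0_seq1 had 42, 0, 106 and 0 reads and comp58944_c0_seq1 had 5, 0, 17 and 0.

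Gene lists drawn from the named transcripts, at 1 transcript a gene, set 14 dpa beside the earlier stages for more genes than the members. They are not free of members: 3 cell cycle genes and 2 genes of limb patterning have one. Where the member is the transcript compared, its late fold is set by the choice. Of 59 cell cycle genes, 29 were more than 0.58 (log2) higher at 14 dpa than at every earlier stage, against the background of 8.44%, with a median late fold of 0.58. Of the 59, 44 were named through a table of transcripts that the study had selected as rising by 6 dpa, so their rise against 0 dpa is not independent evidence. Among all 956 genes named through that table, 12.7% had a late fold above 0.58. The lowest were *kif2c*, a kinesin of the kinetochore, at -0.69 with 53 reads at 14 dpa, and the *pold1* transcript described above that was at 0 reads.

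Against single stages, 58 of the 59 cell cycle genes were above 0.58 for 14 over 0 dpa, 29 for 14 over 3 dpa and 54 for 14 over 6 dpa, with 1, 2 and 1 below -0.58. The background of all transcripts above 0.58 was 33.1%, 25.8% and 24.9%, and that below -0.58 was 33.0%, 34.6% and 27.4%. Their summed TMM-scaled level was 398, 1677, 1116 and 2390 cpm at 0, 3, 6 and 14 dpa, a first high at 3 dpa followed by a greater one at 14 dpa. The count of 29 changed to 42 with total reads, 43 with upper quartile scaling and 8 with a cut-off of 1.

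Of 43 genes of limb patterning and signalling, 7 had a late fold above 0.58, against 8.44% of all transcripts. The list's median was -0.31, against -0.69 for all transcripts and -0.42 for all 2269 named genes at 1 transcript a gene. Of the 43, 27 were named through the table of transcripts that rose by 6 dpa and 9 through that of transcripts that fell. Among all genes named through the first table, 12.7% had a late fold above 0.58, and their median was -0.09, above that of the list. *tfap2a*, the highest of the list, stands in it with its member and is high by the choice. The list does not hold *hoxa13* or *eya4*, and *gli2a* stands in it with the non-member at -0.34. After *tfap2a* came *wif1*, a secreted Wnt inhibitor, with 31, 48, 19 and 124 reads and 1.26 (0.68 to 1.88). *igf2bp3*, an RNA-binding protein of growing embryonic tissue, had 112, 377, 280 and 577 reads and 1.12 (0.91 to 1.33), and the zinc finger protein *TSHZ3* had 40, 70, 73 and 149 reads and 1.11 (0.70 to 1.53). The lowest were *dlc*, a Notch ligand, at -3.42 with 7 reads at 14 dpa, against 127 reads at 3 dpa, and *mdka*, the growth factor midkine, with 0 reads at 14 dpa, against 34 reads at 6 dpa.

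The way genes got their names bears on the lists that follow. Of 892 genes named through the study's table of transcripts that fell by 6 dpa, 27 had a late fold above 0.58 and 541 one below -0.58, with a median of -0.82. Among all transcripts, 8.44% were above 0.58 and 53.2% below -0.58, since the late fold takes the highest of 3 libraries. Genes from that table made up 17 of the 21 skeletal muscle genes, 8 of the 10 Schwann cell and nerve genes, 14 of the 24 leukocyte genes, 13 of the 18 epidermal genes and 12 of the 25 cartilage and skeletal genes. Low values in these lists are thus not independent evidence of a fall. In the collagen and matrix list 25 of 28 genes came from the table of transcripts that rose by 6 dpa.

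Of the 25 cartilage and skeletal genes, 0 had a late fold above 0.58 and 19 one below -0.58, with a median of -2.21. Not all fell against each single stage. For 14 over 0, 3 and 6 dpa, 4, 4 and 7 of them were above 0.58, while 14 were below -0.58 in each comparison. *sox5*, a transcription factor of cartilage, had 48, 59, 32 and 95 reads and a late fold of 0.24 (-0.27 to 0.78), and *dlx5a*, a homeobox factor of limb and bone, had 0.24 (0.04 to 0.44). The cartilage matrix protein *chad* had 2 reads at 14 dpa, against 557, 57 and 7 at 0, 3 and 6 dpa. Of 28 collagen and matrix genes, 23 were below -0.58 and 1 was above 0.58, *postnb*, which encodes the matrix protein periostin, with 6861, 5571, 12241 and 17558 reads and 0.60 (0.57 to 0.63). That value was under the cut-off with total reads and with TMM referred to 3 dpa, and the component was at 0.45. The list's median was -1.48. Its summed level was 2422, 11016, 8014 and 4471 TMM-scaled cpm at 0, 3, 6 and 14 dpa. For 14 over 0 dpa, 11 of the 28 were above 0.58 and 6 below -0.58. Over 3 dpa these counts were 1 and 21, and over 6 dpa 2 and 15.

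Markers of other tissues in the pooled limb were read against the same background. The 21 skeletal muscle genes had a median late fold of -5.35 with counts of 3 reads or fewer set to 3, with 18 below -0.58 and 0 above 0.58. For 14 over 0, 3 and 6 dpa, 3, 2 and 1 of the 21 were above 0.58, and 17, 15 and 14 were below -0.58. Their summed level was 3107, 753, 299 and 165 TMM-scaled cpm at 0, 3, 6 and 14 dpa. *smpx*, a small muscle protein, and *HRC*, a calcium-binding protein of the sarcoplasmic reticulum, had 0 reads at 14 dpa, against 1393 and 810 reads at 0 dpa, and 7 of the 21 genes were at 0 there.

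The 10 Schwann cell and nerve genes had a median of -1.83 with counts of 3 or fewer set to 3, with all 10 below -0.58. *mpz*, the main protein of peripheral myelin, had 20639, 3307, 877 and 172 reads. Not all fell against each single stage. For 14 over 0, 3 and 6 dpa, 1, 1 and 3 of the 10 were above 0.58, and 8, 5 and 3 were below -0.58. The 24 leukocyte genes had a median of -1.95, again with counts of 3 or fewer set to 3, with 20 below -0.58 and 0 above 0.58. For 14 over 0, 3 and 6 dpa, 4, 5 and 1 of the 24 were above 0.58, and 13, 15 and 13 were below -0.58. Their summed level was 310 cpm at 14 dpa, against 611, 1076 and 733 at 0, 3 and 6 dpa. Of 18 epidermal genes, 13 were below -0.58 and 1 was above 0.58, *SP6*, a zinc finger factor of the limb's apical epidermis in the mouse, with 11, 229, 103 and 266 reads and 0.95 (0.69 to 1.22). The keratin *krt15* and the claudin *cldnb* had 1023 and 316 reads at 0 dpa and 0 reads at the later stages. Of the 18 genes, 5 were at 0 reads at each of 3, 6 and 14 dpa. For 14 over 0, 3 and 6 dpa, 2, 2 and 1 of the 18 were above 0.58, and 10, 5 and 1 were below -0.58. The 5 genes at 0 reads hold no information on 14 over 3 or 6 dpa and were counted there as neither above nor below. The list's median was -0.92 and its summed level 756 cpm at 14 dpa, against 1324, 816 and 771 cpm at 0, 3 and 6 dpa. Of the 4 red blood cell genes, 3 were below -0.58 and 1 was above 0.58, with a list median of -0.93. The 1 above was the transferrin receptor *tfr1a* at 0.68, but its interval was not wholly above 0.58 and its component was at -0.34. The part of a changed tissue mix in the late folds of the members was not tested.

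**Figure D4:**
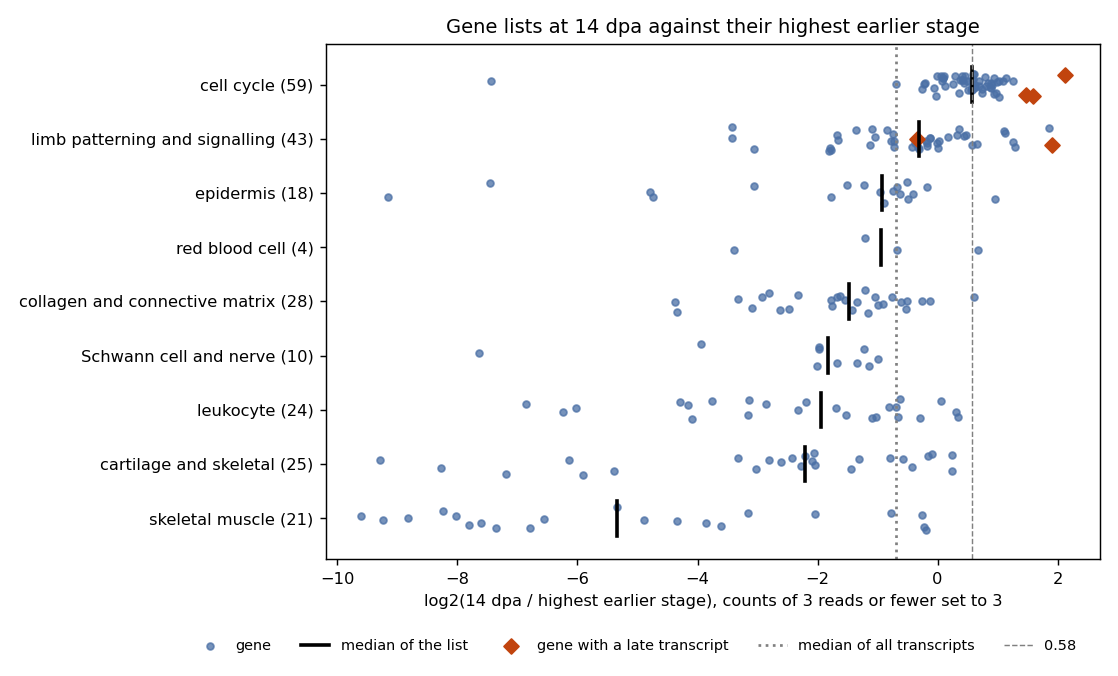
Late fold (log2 of 14 dpa over the highest earlier stage, counts of 3 reads or fewer set to 3) of each gene in 9 lists, with the number of genes in brackets, black bars for the list medians and vertical lines for the median of all transcripts (-0.69) and for 0.58. Diamonds are genes paired with a late transcript, the one at -0.34 being the *gli2a* transcript comp37465_c0_seq1. The cell cycle genes lie furthest to the right, with a median of 0.58, and the skeletal muscle genes furthest to the left, with a median of -5.35.

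The set has a limit and not a gap. The 5 members just inside it had rule values of 1.36 to 1.34 and were comp38437_c0_seq1, comp38088_c0_seq4, comp15872_c0_seq1, comp15738_c0_seq1 and comp40361_c0_seq6, the last with 363 reads at 14 dpa and a late fold of 0.94 (0.63 to 1.26). The 5 transcripts just outside it had rule values of 1.34 to 1.33. They were comp41266_c0_seq2, paired with *ttyh3b*, comp39438_c0_seq1, the larger *gli2a* transcript named above, comp37849_c0_seq1, paired with the FGF signalling inhibitor *il17rd*, and comp42481_c0_seq1. *ttyh3b*, of the Tweety family of membrane proteins, had 2, 139, 295 and 743 reads and a late fold of 1.41, and *il17rd* had 63, 401, 246 and 618 reads and a late fold of 1.36.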

How the data were processed

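Trimming by the authors used Trimmomatic, the joint assembly of the 4 mRNA libraries used Trinity, and RSEM gave the reads per transcript. Their versions are not given in the sources used here. The deposited table is named as log2 cpm, but its values are the log2 of whole read numbers: raised to the power of 2, they deviated from whole numbers by at most 3.47e-09. Of 93299 lines, 3200 repeats were dropped. An entry of 0 counted as 1 read in the choice of members and as 0 reads elsewhere. Scaling was the trimmed mean of M values (TMM) referred to 0 dpa (30% of ratios and 5% of levels trimmed), with a prior count of 0.125, run under SciPy 1.17.1, pandas 2.3.3 and NumPy 2.4.6 (Python 3.11.15). Figures were drawn with matplotlib 3.10.9. The steps were tested on simulated data. With 1 library per stage no test was made. The floor of 3 reads is 0.197, 0.0812, 0.157 and 0.161 cpm at 0, 3, 6 and 14 dpa.

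Members, gene lists and alternatives were chosen with earlier results of these data known. Named are the 15 members with the largest rule values, the 10 with the most reads, those beside the limit, every member named itself or through its component, and up to 4 highest and 2 lowest genes per list with 30 or more reads, except that 1 gene this rule would name is not reported here. Reference symbols matched no deposited ID. Of 21 member symbols, 14 are also axolotl RefSeq symbols. The small RNA libraries were not used here.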

Additional observations from a re-analysis of the deposited data

How the results depend on the processing

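Read numbers under TMM scaling gave all 200 members a late fold above 0.58, and so did total reads, the upper quartile, TMM referred to 3 dpa, a prior count of 1 and entries of 0 read as 1 read. With a cut-off of 1 the count was 196. Of 195 values of 39 single members under the scaling, prior and zero alternatives, 174 stayed within the counting interval, 21 did not, and none was at or below 0.58. That the members lay above the cut-off throughout was made near certain by their choice and is no test of them. Who belongs to the set depends more on the choices. Of the 200 members, 172 were taken with TMM, 184 with the upper quartile, 199 and 189 with pseudocounts of 0.1 and 2 cpm, 160 without 3 dpa and 160 without 0 dpa, but 105 without 6 dpa, 61 against 0 dpa alone, 107 with a minimum of 100 reads and 55 with a minimum of 1000 reads, since only 55 members reach it. With reads summed over components, 86 members lay in a chosen component. Leaving out 0 or 6 dpa and reading entries of 0 as 0 reads, which took the same 200, were added after seeing the data.

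With total reads, 38 members in place of 64 were highest before 14 dpa at 0 dpa and 97 in place of 59 at 6 dpa. With a cut-off of 1, the other transcripts of the components were higher in 4 and lower in 40, and above it were 8 cell cycle genes, 0 collagen, 0 epidermal and 0 red blood cell genes. The collagen count was also 0 with total reads, with TMM referred to 3 dpa and with component sums, which likewise left 0 red blood cell genes. The other list counts stayed within 1.5 times of the main count or within 1 gene of 0. No paired analysis was possible because each stage has 1 library.

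The 3 dpa library is the deepest and that at 0 dpa the shallowest, so a low level at 0 dpa is the least precisely known. Intervals cannot stand for the spread between animals.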

Other observations

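Applied to reads summed over each component, the rule took 200 components of the 7968 with 300 or more reads at 14 dpa. Of these, 78 held a member. The other 122 did not, and 27 of them have a name. The following were chosen after their values were seen. Among them were further genes of DNA replication and chromosome segregation, such as *nek2*, a centrosomal kinase (13, 256, 110 and 302 reads at 0, 3, 6 and 14 dpa, late fold 0.98). *fbxo5*, an inhibitor of the anaphase-promoting complex, had 9, 274, 141 and 307 reads and 0.90. *slbp*, which binds the stem-loop of histone mRNAs, had 269, 2154, 1250 and 2591 reads and a late fold of 1.01 (0.92 to 1.09).

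Single-transcript components outside the cell cycle included *psat1*, an enzyme of serine synthesis (61, 512, 266 and 665 reads, late fold 1.12), *mthfd1l*, a mitochondrial enzyme of folate metabolism (133, 849, 284 and 928 reads, 0.87), and *cyp51*, an enzyme of cholesterol synthesis (111, 311, 145 and 392 reads, 1.07). *zic5*, a zinc finger factor, had 11, 310, 102 and 381 reads and 1.04, and the histone deacetylase *hdac1* had 589, 1838, 1511 and 3055 reads (interval of the late fold 1.01 to 1.19). A second match to the HMG-14 nucleosome-binding protein, comp10542_c0_seq1, had 6850, 25544, 19390 and 40816 reads and a late fold of 1.15 (1.13 to 1.18). Among the high-mobility group transcripts looked up, *hmgb1b* (comp43383_c0_seq1) went the other way, and the rule did not take it. It had 29, 0, 113 and 0 reads, and its late fold of -9.85 rests on 0 reads at 14 dpa. Of 33 transcripts that the study's table of blastema genes names beside the *hox* genes, 2 had a late fold above 0.58, 15 were between the cut-offs and 16 were below -0.58, with a median of -0.56. Among all transcripts, 8.44% were above 0.58 and 53.2% below -0.58, with a median of -0.69, so these 33 lay close to the background. Both of the 33 above 0.58 were of *msxe*, a homeobox gene of the *msx* family, which had late folds of 1.28 (83 reads at 14 dpa) and 1.43 (46 reads). Values below the cut-off included -8.28 for *mmp9*, a matrix metalloproteinase, and -2.95 for *junb*, a transcription factor of the AP-1 family.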
